A study of Homo sapiens with 4 samples.

Results

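Acute-phase proteins are plasma proteins whose synthesis in the liver changes with infection or injury. Here 7 of 10 listed genes of this class were measured in hypoxic liver cancer cells with and without knockdown of USP22. The 10 genes were SAA1, SAA2, CRP, LCN2, HP, ORM1, ORM2, SERPINA1, SERPINA3 and LBP, chosen by gene symbol. A symbol matched for CRP, LCN2, ORM1, ORM2, SERPINA1, SERPINA3 and LBP, which hold 8 of the 14540 rows of the count table and are 7 of its 12153 genes. SAA1, SAA2 and HP were not analysed here. A row counts the reads of 1 RefSeq mRNA accession, and where a gene had several rows the one with the highest summed count stood for it.

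The cells were PLC/PRF/5, an established human hepatocellular carcinoma line grown in high-glucose DMEM. The control group (PLC-NC, 2 libraries) and the USP22 knockdown group (PLC-shUSP22, 2 libraries, lentivirus-mediated interference) both spent 48 h in 1% oxygen with 5% carbon dioxide. Hypoxia was therefore common to all 4 libraries, and no cells outside hypoxia enter the comparison. USP22 is a deubiquitinase of the SAGA transcriptional coactivator complex, and the comparison asked how its knockdown altered expression under hypoxia. The labels name neither separate cultures nor the number of hairpins used, so p-values measure the spread between these libraries, which may be technical.

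In the liver, interleukin-6 acting through STAT3 and C/EBP factors, and interleukin-1 and tumour necrosis factor acting through NF-kB, induce the positive acute-phase proteins. These proteins opsonise microbes (CRP), carry bacterial lipopolysaccharide to its receptor (LBP), withhold iron (LCN2), bind haemoglobin or drugs in plasma, or restrain proteases released by neutrophils. Negative acute-phase proteins such as albumin fall in the same response.

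Library totals were 15027209 to 17194929 counts. The USP22 row itself held 46513 and 41607 counts in PLC-NC and 5438 and 7683 in PLC-shUSP22, a log2 fold change of -2.77 ± 0.17 (SE). All 9 hepatocyte markers examined had a row, and 4 of them rose (APOH, APOB, AFP and FGB) while none fell. That is 44.4% higher and 0% lower, beside 8.49% and 10.2% of all tested rows, the background for each marker list here. The summed level of the 9 was 27837 to 29941 CPM in PLC-NC and 35217 to 44767 CPM in PLC-shUSP22, and this gap was that of APOB. Without APOB the other 8 summed to 18315 and 19041 CPM in PLC-NC and to 17242 and 18587 CPM in PLC-shUSP22, and 4 of the 8 had log2 fold changes below 0. Those 4 were ALB, APOA1, TTR and TF, and none of them was called. ALB had 656 and 795 CPM (counts scaled to the TMM-normalised library size) in control cells. The row of HNF4A, a gene with 10 RefSeq mRNA accessions, held only 1 and 5 counts in PLC-NC and 23 and 18 in PLC-shUSP22. The level of this row may be far below that of the gene. The log2 fold change of the row was 2.73, and it was not called (adjusted p = 0.0584). Markers of leukocytes were measured for 2 of 6 genes (CD68 and LYZ), with a summed level of 305 to 360 CPM in PLC-NC and 222 to 384 CPM in PLC-shUSP22. Of 4 cholangiocyte markers KRT7 (log2 fold change -1.54, adjusted p = 0.0266) and EPCAM (-2.25, adjusted p = 0.0352) fell (0% higher and 50% lower). EPCAM held only 25 and 62 counts in PLC-NC and 11 and 7 in PLC-shUSP22. KRT19 (0.37, adjusted p = 0.425) and SOX9 (-0.36, adjusted p = 0.449) had overlapping groups and were not called. The summed level of the 4 was 127 to 178 CPM in PLC-NC and 80.0 to 173 CPM in PLC-shUSP22. The log2 fold changes of KRT7 and EPCAM moved with the library left out. That of KRT7 was -2.22 without knockdown replicate 1, and that of EPCAM was -1.46 without control replicate 2. EPCAM was not called with limma-voom (adjusted p = 0.0702). Neither call held without control replicate 2 (adjusted p = 0.0953 and 0.334) or without knockdown replicate 2 (0.113 and 0.122), in ranges of 0.000272 to 0.113 and 0.00193 to 0.334 over the alternatives. Of the endothelial markers 2 of 4 could be tested and 1 rose (50% higher and 0% lower), PECAM1 (log2 fold change 1.02, adjusted p = 0.0185). CDH5 was not called (-0.73, adjusted p = 0.505). VWF, removed by the filter on low counts, held 7 and 9 counts in PLC-NC and 0 and 2 in PLC-shUSP22. The summed level of the 3 with a row was 11.6 to 17.9 CPM in PLC-NC and 23.3 to 29.6 CPM in PLC-shUSP22. Of this, PECAM1 alone had 14.8 and 10.1 CPM in PLC-NC and 28.2 and 22.3 CPM in PLC-shUSP22. Of the stellate and fibroblast markers 2 of 5 could be tested and neither passed. The part of these markers in the results on acute-phase genes was not tested. All 4 libraries came from 1 established line, so the markers were read as transcripts of its cells. In RNA of the whole culture, fewer cells that hold a transcript and less of it per cell cannot be told apart.

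The acute-phase genes did not move as a block. LBP rose 2.00-fold, LCN2 fell 3.30-fold, and CRP, ORM1, ORM2, SERPINA1 and SERPINA3 did not pass the test. All 7 genes were tested, by edgeR's quasi-likelihood test with Benjamini-Hochberg adjustment over all 12337 tested rows and a threshold of 0.05, which is the source of every adjusted p here unless another is named. Thus 1 gene of 7 was called higher, where 8.49% of all tested rows were, and 1 of 7 was called lower, where 10.2% were, so that 2 of 7 were called against 18.7% overall. For 3 of the 7 genes the PLC-NC and PLC-shUSP22 libraries did not overlap, with lower values after knockdown for CRP and LCN2 and higher ones for LBP. Of all tested rows 59.6% showed no overlap, 30.3% with lower and 29.3% with higher values. The median log2 fold change was -0.20 for the 7 genes and 0.00 for all tested rows. With 7 genes, each count is near what its background share would give.

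**Figure D1:**
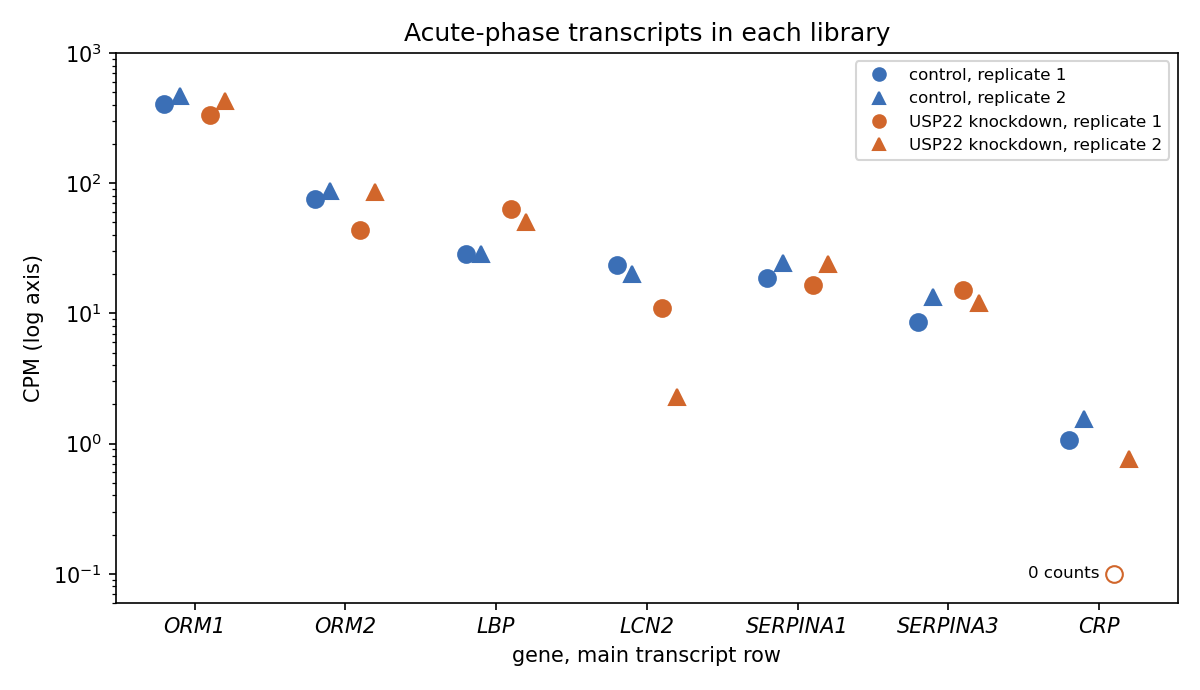
CPM on a log axis (vertical) of the main row of each acute-phase gene (horizontal) in the 2 control and 2 knockdown libraries. Each symbol is 1 library, and the open circle marks 0 counts for CRP in knockdown replicate 1. LBP lies higher in both knockdown libraries, LCN2 and CRP lie lower in both, and the groups of the other 4 genes overlap.

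The levels of the genes differed widely. Per kilobase of transcript, the row of ORM1 had the highest level of the 7 in control cells, at 510 and 584 CPM per kilobase, and ranked 111 among 11880 tested rows with a known length. ORM2 followed at 99.3 and 114.5 CPM per kilobase and LCN2 at 28.6 and 24.3. LBP (14.6 in both libraries) and SERPINA1 (11.6 and 15.02) overlapped, so their order is not resolved. The row of SERPINA3 had 5.40 and 8.41 CPM per kilobase and that of CRP 0.533 and 0.767. CRP, SERPINA1 and SERPINA3 have 4, 11 and 4 RefSeq mRNA accessions. Rows of such genes held few counts in this table, with a median row total of 118 for genes with 3 or more accessions and 2716 for genes with 1. The levels of these 3 genes are therefore those of a row and may be far below those of the gene.

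LBP, the plasma protein that extracts lipopolysaccharide from bacterial membranes and hands it to CD14, was the only acute-phase gene of the 7 called higher. Its row (NM_004139.4) held 454 and 462 counts in PLC-NC, or 28.7 and 28.6 CPM. In the knockdown libraries it held 966 and 867 counts, or 63.9 and 50.5 CPM. The 2 control libraries were nearly equal and both knockdown libraries were well above them. Its mean rose from 28.6 ± 0.0676 to 57.2 ± 9.46 CPM (SD, n = 2 per group), a 2.00-fold increase (1.73 to 2.31 within 1 SE) with a log2 fold change of 1.00 ± 0.21 and an adjusted p = 0.00498. The call held in all 11 alternative analyses that were run, over log2 fold changes of 0.86 to 1.17 and adjusted p-values of 3.24e-06 to 0.0200. For this row the authors' deposited table lists 1.02 as log2 fold change and 2.00e-06 as q-value. LBP has 1 RefSeq mRNA accession, and none of the 1912 windows of 50 bases in its transcript model occurred in a transcript of another gene, so its counts are not shared with a paralog at that length.

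LCN2, a lipocalin that captures the siderophores with which bacteria take up iron, was the one acute-phase gene of the 7 called lower. Its row (NM_005564.4) held 372 and 323 counts in PLC-NC and 166 and 39 in PLC-shUSP22. These are 23.5 and 20.0 CPM in PLC-NC and 10.97 and 2.27 CPM in knockdown cells. Both knockdown libraries were below both control libraries, but they differed from each other 4.83-fold, against a ratio of 0.850 between the control libraries. Across the 10836 rows whose mean reached 1 CPM, the median absolute log2 ratio between the knockdown libraries was 0.30, whereas that of LCN2 was 2.22. Its mean fell from 21.7 ± 2.48 to 6.62 ± 6.15 CPM (SD, n = 2 per group), with a log2 fold change of -1.72 ± 0.49 and an adjusted p = 0.0256. The size of this decrease rested on the library used. The log2 fold change was -3.22 without knockdown replicate 1 and -0.98 without knockdown replicate 2. The call was absent with DESeq2 (adjusted p = 0.280) and was made in the other 10 of 11 alternatives. Among these, the fits without a knockdown library leave 1 sample in that group. The gap between the knockdown libraries does not enter their error, so they do not test the call against it. For LCN2 the authors' deposited table lists -1.70 as log2 fold change and 0.238 as q-value.

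The promoter of LCN2 is shown because this gene was called lower and NF-kB and C/EBP factors are known to act on it. RefSeq promoters (250 bases before to 50 after the start, GRCh38.p14, a build other than the hg19 of the submitters) were found for 5 of the 7 genes, and entries for ORM2 and LBP were not found. The window for LCN2 is chr9:128149203-128149502, plus strand, printed 5′ to 3′ with motif matches in capitals.
LCN2: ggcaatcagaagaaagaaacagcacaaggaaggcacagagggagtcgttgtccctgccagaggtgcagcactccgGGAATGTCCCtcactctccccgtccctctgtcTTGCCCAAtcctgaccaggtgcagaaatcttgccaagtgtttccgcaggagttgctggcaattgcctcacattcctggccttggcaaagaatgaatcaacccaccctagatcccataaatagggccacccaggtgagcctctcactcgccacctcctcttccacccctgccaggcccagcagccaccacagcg
The first run in capitals is a match to the usual kappa B consensus on the minus strand, starting 175 bases before the transcription start, and the second is a C/EBP match (TTGCNNAA) starting 143 bases before it. Searched on both strands, the kappa B consensus occurred in 11.3% and the C/EBP motif in 10.5% of all 35116 promoter windows of that length. No match to the STAT3 motif (TTCNNNGAA, in 7.66% of windows), to the hypoxia response core as ACGTG (21.4%) or GCGTG (36.5%), or to the HNF1 half-site GTTAAT (6.88%) lay in the LCN2 window. These are matches of letters, and no binding was measured.

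CRP is a pentraxin that binds phosphocholine on microbes and activates complement. The row of this gene, which has 4 RefSeq mRNA accessions, was near the limit of detection. Its row (NM_000567.2) held 17 and 25 counts in PLC-NC and 0 and 13 in PLC-shUSP22. The 0 of knockdown replicate 1 allows up to 3 counts, or 0.1996 CPM, a limit for counting error only. Both knockdown libraries were below both control libraries, and the summed counts were 42 in PLC-NC and 13 in knockdown cells. The ratio of these sums, scaled to library totals, was 0.309 (0.152 to 0.587, exact 95% binomial interval for counting error only). Against the spread between libraries CRP did not pass, with a log2 fold change of -1.73 ± 1.03 and an adjusted p = 0.270. The 95% interval of that log2 fold change ran from -3.94 to 0.48. It was -0.75 without knockdown replicate 1 and -7.37 without knockdown replicate 2, the latter fitted against 0 counts and no bound. Only without knockdown replicate 2, which leaves the library with 0 counts as the knockdown group, was CRP called (adjusted p = 0.0279, in a range of 0.0279 to 0.732 over 10 alternatives). The CRP window (chr1:159714540-159714839, minus strand of the genome, printed in the direction of the gene) is shown because this gene and LCN2 were both lower in both knockdown libraries.
CRP: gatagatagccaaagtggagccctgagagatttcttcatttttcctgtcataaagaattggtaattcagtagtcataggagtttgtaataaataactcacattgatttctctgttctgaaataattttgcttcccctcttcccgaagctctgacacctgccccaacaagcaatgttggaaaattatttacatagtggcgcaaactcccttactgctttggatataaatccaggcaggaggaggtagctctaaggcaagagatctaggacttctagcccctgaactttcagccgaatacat
It held no match to any of the motifs above, the kappa B and C/EBP motifs of the LCN2 window included.

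The orosomucoids ORM1 and ORM2 encode alpha-1-acid glycoprotein, a lipocalin that carries basic drugs in plasma. Their coding sequences, the longest open reading frames of the GENCODE models, are both 606 bases long and differ at 31 positions (94.9% identity). The stretch with the most differences, coding bases 338 to 397, is printed to show how alike the genes are, with the 14 positions that differ in capitals.
ORM1: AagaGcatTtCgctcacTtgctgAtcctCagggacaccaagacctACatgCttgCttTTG
ORM2: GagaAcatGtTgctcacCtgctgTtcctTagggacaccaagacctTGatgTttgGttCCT
Of the 50-base windows of the ORM1 model 47.4% also occurred in ORM2, and 50.2% of those of ORM2 occurred in ORM1. How reads that fit both genes were counted is not stated in the labels, so the division of counts between them is uncertain.

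ORM1, whose row had the highest level of the 7 main rows, did not pass the test. Its row (NM_000607.2) had 409 and 469 CPM in PLC-NC and 332 and 431 CPM in PLC-shUSP22, so that the groups overlapped. The log2 fold change was -0.20 ± 0.17 (adjusted p = 0.463), with a 95% interval of -0.57 to 0.17. This interval excludes a decrease to less than 0.672 of the control level and an increase beyond 1.12-fold. ORM2 (NM_000608.2) had 75.4 and 87.0 CPM in PLC-NC and 44.0 and 86.3 CPM in PLC-shUSP22. Knockdown replicate 1 was low and knockdown replicate 2 lay within the control range. Its log2 fold change was -0.32 ± 0.26 (adjusted p = 0.447, 95% interval -0.88 to 0.24). Without knockdown replicate 2 ORM2 was called lower (log2 fold change -0.87, adjusted p = 0.00242), while the 11 alternatives reached up to 0.773. Adding the counts of both genes gave a log2 fold change of -0.20 and an adjusted p = 0.474. The ratio of ORM1 to ORM2 counts was 5.42 and 5.39 in PLC-NC and 7.54 and 4.99 in PLC-shUSP22, so that the control libraries lay between the knockdown libraries. In the ORM1 promoter window (chr9:114322848-114323147, plus strand) the only match to a searched motif was the palindrome CACGTG, which holds ACGTG on both strands and starts 15 bases after the transcription start.

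The protease inhibitors of the class did not pass either. SERPINA1 encodes alpha-1-antitrypsin, the main plasma inhibitor of neutrophil elastase. Its main row (NM_000295.4) had 18.8 and 24.4 CPM in PLC-NC and 16.4 and 23.9 CPM in PLC-shUSP22, with overlapping groups and a log2 fold change of -0.10 ± 0.26 (adjusted p = 0.846, 95% interval -0.67 to 0.47). Its other row (NM_001002236.2) held 5 and 18 counts in PLC-NC and 8 and 16 in PLC-shUSP22, with a log2 fold change of 0.04 ± 0.85 (adjusted p = 0.986). Every 50-base window of the SERPINA1 model occurred in other transcripts of the gene (100%), so no read of that length can be assigned to this accession alone. Of the 2 RefSeq promoter entries of SERPINA1, 1 (chr14:94390586-94390885) held the hypoxia response core GCGTG (in 36.5% of windows), starting 15 bases before the start. The other (chr14:94388553-94388852, minus strand of the genome) held the HNF1 half-site, 76 bases before the start.
SERPINA1: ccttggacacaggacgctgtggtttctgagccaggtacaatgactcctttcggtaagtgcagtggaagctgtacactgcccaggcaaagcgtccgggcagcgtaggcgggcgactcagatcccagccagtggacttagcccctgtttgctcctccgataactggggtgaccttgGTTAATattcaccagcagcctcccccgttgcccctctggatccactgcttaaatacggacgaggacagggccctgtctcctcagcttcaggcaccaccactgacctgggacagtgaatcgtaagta
HNF1 factors are known to drive this promoter in liver cells, and the window is printed to show the site in capitals.

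SERPINA3, alpha-1-antichymotrypsin, an inhibitor of cathepsin G, had 8.59 and 13.4 CPM in PLC-NC and 15.1 and 11.9 CPM in PLC-shUSP22 (NM_001085.4). Knockdown replicate 2 lay within the control range. The log2 fold change was 0.30 ± 0.30 (adjusted p = 0.544, 95% interval -0.35 to 0.94), and no alternative made a call (adjusted p from 0.283 to 0.986). In GENCODE the whole SERPINA3 model (100% of its windows) is also part of transcripts listed under another gene name, AL049839.2, which may affect what was counted.

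**Figure D2:**
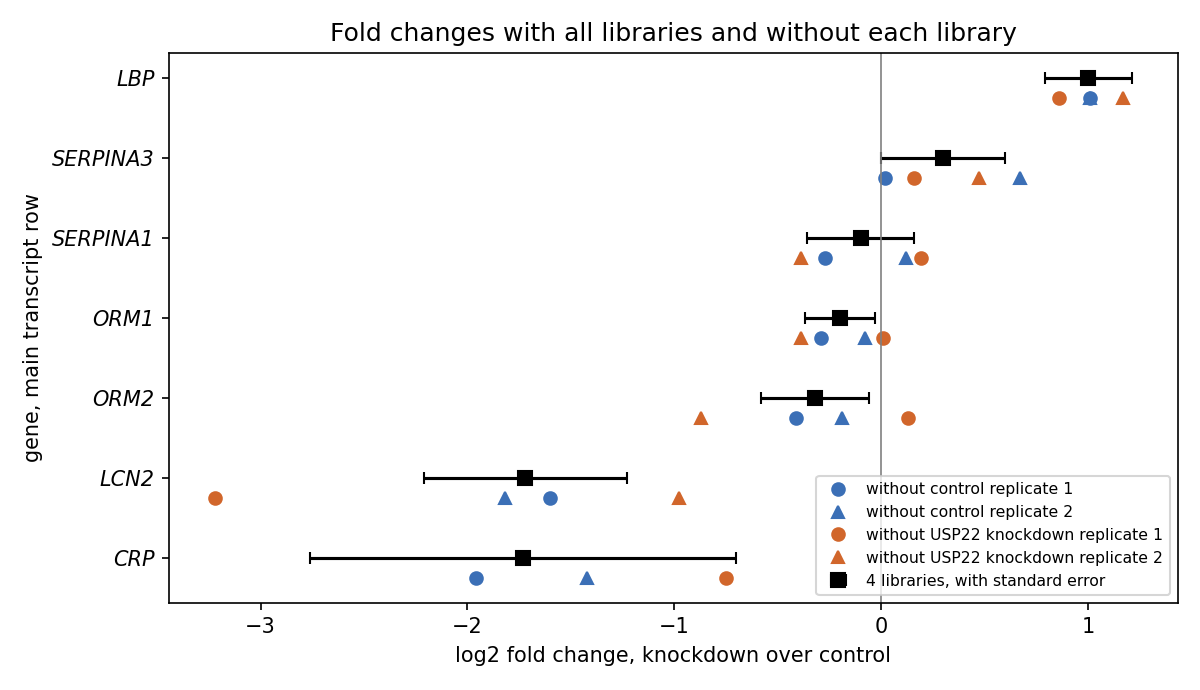
Log2 fold change, knockdown over control (horizontal), of each acute-phase gene (vertical), with its standard error (black squares, 4 libraries) and the values without each library (coloured symbols). LBP stays between 0.86 and 1.17, LCN2 runs from -3.22 to -0.98, and ORM1, ORM2 and SERPINA1 cross 0; CRP without knockdown replicate 2 is not drawn, since the remaining knockdown library had 0 counts.

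Other positive acute-phase proteins included genes that rose and genes that fell. Of 25 listed 22 could be tested, of which 7 rose, 3 fell and 12 did not pass. That is 31.8% higher and 13.6% lower, beside 8.49% and 10.2% of all tested rows. The list median was 0.36 (log2 fold change). The 3 fibrinogen chain genes, which encode the clotting precursor of fibrin, rose together. FGA had 649 and 640 CPM in PLC-NC and 1247 and 1329 CPM in PLC-shUSP22 (adjusted p = 0.000516), FGB had a log2 fold change of 1.19 (adjusted p = 0.000230) and FGG one of 0.85 (adjusted p = 0.00319). These 3, SAA4, NNMT and FTH1 are named after their values were seen. SAA4 is the serum amyloid A that liver cells make constitutively and bind to high-density lipoprotein. It was listed here all the same and is 1 of the 7 that rose. Its level was 9.41 and 10.2 CPM in PLC-NC. It had 28.96 and 41.6 CPM in PLC-shUSP22, a 3.60-fold increase (log2 fold change 1.85 ± 0.26, adjusted p = 0.000370). NNMT, a methyltransferase acting on nicotinamide, rose by 1.11 (adjusted p = 0.00491).

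The largest increases of this list were those of APCS and HAMP, and both genes had few counts. HAMP, which encodes the iron hormone hepcidin, had 10 and 2 counts in PLC-NC and 61 and 54 in PLC-shUSP22. Its log2 fold change was 3.23 ± 0.69 (adjusted p = 0.00587), 4.78 without control replicate 1 and 2.51 without control replicate 2. APCS, which encodes serum amyloid P, a pentraxin like CRP, had 1 and 2 counts in PLC-NC and 15 and 17 in PLC-shUSP22. The summed counts were 10.7 times higher (3.33 to 54.3, exact 95% binomial interval for counting error only), with an adjusted p = 0.0349. The APCS call was lost without any 1 of the libraries (adjusted p = 0.0969 to 0.3005), without a filter (0.0674), with DESeq2 (0.0954) and with limma-voom (0.0787), so that it was made in 3 of 10 alternatives, the lowest adjusted p being 0.0288. The pentraxins APCS and CRP thus had counts that differed in direction, and a test of that difference was not run.

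C3, the central complement component, fell from 4836 and 4821 CPM in control to 2461 and 2890 CPM in PLC-shUSP22 (log2 fold change -0.85 ± 0.14, adjusted p = 0.00130). VNN1, a pantetheinase, fell too (log2 fold change -1.13, adjusted p = 0.0273). It was not called without control replicate 2 (0.106) or knockdown replicate 2 (0.135), the highest adjusted p of its 11 alternatives. FTH1, the ferritin heavy chain, stood at the threshold (log2 fold change -0.46, adjusted p = 0.0499) and was called in 5 of 11 alternatives. It was not called without control replicate 1 (0.179), control replicate 2 (0.0960) or knockdown replicate 1 (0.121).

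Of 14 listed negative acute-phase proteins 11 could be tested, of which 3 rose, 1 fell and 7 did not pass, or 27.3% higher and 9.09% lower against the background of 8.49% and 10.2%. The list median was -0.18 (log2 fold change). TTPA, which transfers vitamin E in the liver, rose by 0.96 (adjusted p = 0.0145), F12, coagulation factor XII, by 0.74 (adjusted p = 0.0248), and APOA2, named after its values were seen, by 0.71 (adjusted p = 0.0344). None of these 3 calls held without control replicate 1 (adjusted p = 0.0571, 0.0919 and 0.199) or without knockdown replicate 2 (0.0858, 0.152 and 0.0756). Their highest adjusted p over 11 alternatives were 0.0858, 0.152 and 0.199. AHSG, the plasma glycoprotein fetuin-A, fell from 478 and 768 CPM to 317 and 344 CPM (adjusted p = 0.00709). Without control replicate 2 it did not pass (adjusted p = 0.154, the highest of 11 alternatives). TF, transferrin, was the row of the list with the highest CPM and is named after its values were seen. Its level per kilobase is not ranked, since the longest model matched to it, of 20602 bases, set its length. It had 16362 and 17025 CPM in PLC-NC and 14063 and 15353 CPM in PLC-shUSP22 and did not pass (adjusted p = 0.359).

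**Figure D3:**
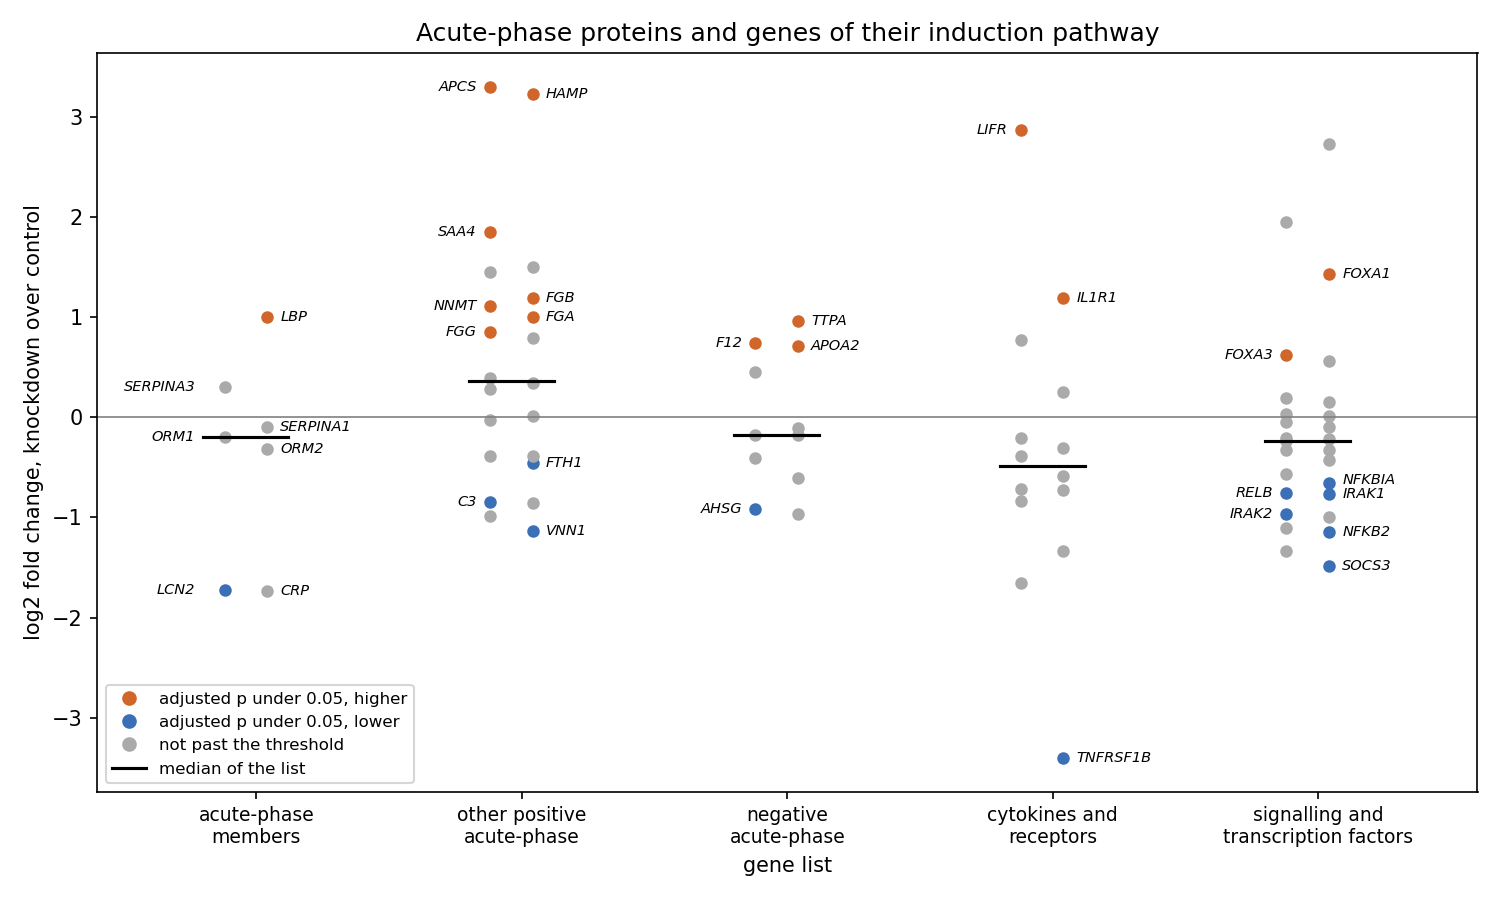
Log2 fold change, knockdown over control (vertical), of the tested genes of 5 lists (horizontal): the 7 acute-phase genes, other positive and negative acute-phase proteins, cytokines and receptors, and signalling and transcription factors. Each point is 1 gene, coloured by its call, and bars are list medians. The positive list spreads from -1.13 (VNN1) to 3.30 (APCS), and the factors called lower lie between -1.48 (SOCS3) and -0.66 (NFKBIA).

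The next list joins the signal transducers and transcription factors of the response with their feedback inhibitors. Of 36 listed 27 could be tested, of which 2 rose, 6 fell and 19 did not pass, or 7.41% higher and 22.2% lower, where all tested rows gave 8.49% and 10.2%. Of the 6 that fell, SOCS3 and NFKBIA are inhibitors. The list median was -0.24 (log2 fold change). SOCS3, the feedback inhibitor that STAT3 induces, fell from 20.6 and 17.4 CPM to 6.74 and 6.87 CPM (log2 fold change -1.48 ± 0.27, adjusted p = 0.00246). NFKB2, the p100 subunit of NF-kB, had a log2 fold change of -1.14 (adjusted p = 0.00709) and was not called without control replicate 2 (0.0628, the highest of 11 alternatives). The other 4, named after their values were seen, were IRAK2, IRAK1, RELB and NFKBIA. IRAK2, a kinase that relays interleukin-1 signals, had 137.5 and 136 CPM in PLC-NC and 67.8 and 71.5 CPM in PLC-shUSP22 (adjusted p = 0.00172). IRAK1, its relative, fell by 0.77 (adjusted p = 0.0179), RELB, an NF-kB subunit, by 0.76 (0.0124) and NFKBIA, the inhibitor IκBα, by 0.66 (0.0180). The call of RELB was lost without control replicate 2 (0.0548) and that of NFKBIA without control replicate 1 (0.207). The call of IRAK1 was lost without control replicate 1 (0.0516), control replicate 2 (0.137) and knockdown replicate 1 (0.0588). Over 11 alternatives the highest adjusted p was 0.0548 for RELB, 0.207 for NFKBIA and 0.137 for IRAK1.

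The forkhead factors FOXA1 and FOXA3, which open liver enhancers, rose, while FOXA2, the other forkhead factor listed, had no call (log2 fold change -0.43, adjusted p = 0.500). FOXA2 is named after its values were seen. FOXA1 had 42.4 and 47.5 CPM in PLC-NC and 78.4 and 163 CPM in PLC-shUSP22 (log2 fold change 1.43 ± 0.27, adjusted p = 0.00312, falling to 0.81 when knockdown replicate 2 was left out). FOXA3 rose by 0.62 (adjusted p = 0.0276), but not without control replicate 1 (0.241), control replicate 2 (0.0559) or knockdown replicate 2 (0.0707), in a range of 0.000497 to 0.241. STAT3 and CEBPD, named after their values were seen, did not pass (adjusted p = 0.632 and 0.889). The STAT3 row, of a gene with 21 RefSeq mRNA accessions, held 132 and 178 counts in PLC-NC and 121 and 143 in PLC-shUSP22.

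Of 22 listed cytokines and receptors of the response 14 could be tested, of which 2 rose, 1 fell and 11 did not pass (14.3% and 7.14%, where all tested rows gave 8.49% and 10.2%). The list median was -0.49 (log2 fold change). TNFRSF1B, a receptor of tumour necrosis factor, had 55.9 and 38.3 CPM in PLC-NC and 6.68 and 2.33 CPM in PLC-shUSP22. Its log2 fold change was -3.40 ± 0.39 (adjusted p = 9.97e-05), -4.30 without knockdown replicate 1 and -2.81 without knockdown replicate 2. IL1R1, the signalling receptor of interleukin-1, rose from 3.41 and 3.46 CPM to 8.66 and 7.05 CPM (log2 fold change 1.19 ± 0.35, adjusted p = 0.0293). Leaving out control replicate 1 (0.0690), control replicate 2 (0.0617) or knockdown replicate 1 (0.0930) ended this call, in a range of 0.00670 to 0.0930. LIFR, the receptor of leukaemia inhibitory factor, had 4 and 3 counts in PLC-NC and 19 and 35 in PLC-shUSP22 (log2 fold change 2.87 ± 0.82, adjusted p = 0.0272). It was called in 6 of 10 alternatives and did not pass with limma-voom (adjusted p = 0.0632). Nor did it pass without control replicate 2 (log2 fold change 2.69), knockdown replicate 1 (3.21) or knockdown replicate 2 (2.49). IL6R, the interleukin-6 receptor, named after its values were seen, had 8.33 and 9.52 CPM in PLC-NC and 15.2 and 15.3 CPM in PLC-shUSP22 and did not pass (adjusted p = 0.0642).

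Of 23 listed binding partners, receptors and clearance genes of acute-phase proteins 13 could be tested, of which 2 rose, 1 fell and 10 did not pass (15.4% and 7.69%, where all tested rows gave 8.49% and 10.2%). The list median was -0.18 (log2 fold change). HPR, the haptoglobin-related protein that binds haemoglobin, had 8 and 4 counts in PLC-NC and 52 and 65 in PLC-shUSP22. Its log2 fold change was 3.24 ± 0.61 (adjusted p = 0.00285), and 3.83 without control replicate 1. Of the 50-base windows of the HPR model 37.2% also occur in HP, so the HPR row may hold reads of HP and is uncertain. LRP2, the endocytic receptor megalin that takes up lipocalins, rose by 0.71 (adjusted p = 0.0103), but not without control replicate 1 (0.125, the highest of 11 alternatives). EDEM1, which directs misfolded glycoproteins such as mutant alpha-1-antitrypsin to degradation, fell from 496 and 552 CPM to 328 and 259 CPM (log2 fold change -0.84 ± 0.17, adjusted p = 0.00410).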

How the data were processed

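RNA of 4 libraries of PLC/PRF/5 cells was measured by sequencing, 2 control and 2 USP22 knockdown, recognised from the sample titles. Per the labels' protocols the libraries came from isolated mRNA and the NEBNext Ultra RNA kit, which does not mark strand, so reads of overlapping or antisense genes cannot be told apart. The authors deposited raw counts per RefSeq mRNA accession. Per the submitters' processing notes bcl2fastq, HISAT2 2.1.0, HTSeq and the build hg19 were used. Their roles and the counting settings: not given in the sources used here. Beside the counts the deposited table lists, from the authors, a log2 fold change with its p-value and its q-value, by an unnamed tool.

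The filter filterByExpr (minimum count 10) kept 12337 rows and removed 2203. TMM factors were 0.979 to 1.015. Knockdown was compared with control by the quasi-likelihood test of edgeR 4.0.16 (R 4.3.3) with no covariate, checked on simulated counts. The common biological coefficient of variation was 22.1%. The standard error is the size of the log2 fold change divided by the square root of F, and 95% intervals use its moderated degrees of freedom. Alternatives were DESeq2 size factors, no filter, at least 5 CPM in 2 libraries, DESeq2 1.42.0, limma-voom (limma 3.58.1), the replicate number as a block, each library left out, rows summed per gene, ORM1 and ORM2 added up, and a threshold of 0.01. Without a library, 1 arm has 1 sample, which is assumed to vary like the other group. A member's value comes from the row with the highest summed count. Transcript models came from GENCODE 29, and the longest model matched to an accession gave its length.

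The members, the gene lists and the alternatives were chosen with earlier results of these data known. Named were all members, USP22 and, per list, the called genes with the largest changes (up to 2 in each direction), or the 2 with the highest mean where none passed. Other genes are said to be named after their values were seen. This also holds for the cell type markers named.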

Additional observations from a re-analysis of the deposited data

How the results depend on the processing

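With 2 libraries per group, the spread between libraries limits every result, and low counts limit CRP, APCS, HAMP, LIFR and HPR further. Leaving out 1 library in turn, 685 to 1340 transcripts were called higher and 1020 to 1297 lower, against 1047 and 1257 with all 4. Acute-phase members called lower then numbered 1 to 3 and members called higher 1. The lists then gave, for higher and lower calls, 6 to 7 and 1 to 3 (positive), 0 to 3 and 0 to 3 (negative), 0 to 1 and 1 to 2 (cytokines and receptors), 1 to 3 and 3 to 6 (signalling), 1 to 2 and 1 to 2 (binding partners), 0 to 1 and 0 to 0 (serpin A cluster), and 1 to 3 and 0 to 1 (lipocalins). DESeq2 called 0 members lower, and 0 at an unadjusted p under 0.05, where edgeR's quasi-likelihood test called 1 (LCN2) by either measure, and the cause was not tested. With a filter of 5 CPM the cytokine and the binding partner lists each had 1 gene higher, since fewer genes were tested. With limma-voom the cytokine list had 1, LIFR being the gene no longer called (adjusted p = 0.0632), and the cause was not tested. At a threshold of 0.01, 433 transcripts were higher and 686 lower, and 0 members were lower. There 1 positive gene was lower, 0 negative genes and 0 cytokine genes were higher, 1 signalling gene was higher and 3 were lower, and 1 binding partner and 1 lipocalin were higher.

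No separate culture or batch is tied to the replicate numbers. The correlation of the deviations of same-numbered libraries was 0.153 across transcripts, and 2 pairs cannot show whether the libraries are paired. With the replicate number as a block 1672 transcripts were called higher and 1859 lower, against 1047 and 1257 without it. The block gave 5 positive, 2 negative, 2 cytokine and 4 binding partner genes lower, and 4 signalling and 2 serpin A genes higher. The calls of members were the same. The fit has fewer degrees of freedom and yet made more calls, and the cause was not tested. It called IL6R (adjusted p = 0.0234), SERPINA6 (0.00674) and SERPINA5 (0.0462), which had no call without it.

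Some log2 fold changes near 0 changed sign when 1 library was left out. Without each library in turn they ran from -0.39 to 0.01 for ORM1, from -0.87 to 0.13 for ORM2, from -0.39 to 0.19 for SERPINA1, from -0.59 to 1.22 for its other row, from -0.40 to 0.06 for ALB and from -0.29 to 0.19 for CEBPD. The value above 0 came without knockdown replicate 1 for ORM1, ORM2 and ALB, without that library or control replicate 2 (0.12) for SERPINA1, and without it or control replicate 1 (0.03) for CEBPD. The other SERPINA1 row was below 0 without control replicate 1 and without knockdown replicate 2 (-0.42). Of these only ORM2 passed the test in any such fit. The cause was not tested.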

Other observations

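SERPINA1 and SERPINA3 lie in a cluster of serpin genes, of which 8 others were listed and 4 could be tested. With edgeR's quasi-likelihood test and with DESeq2 0 passed after adjustment and 2 had an unadjusted p under 0.05. By edgeR's test 8.49% of all tested rows were called higher and 10.2% lower after adjustment. The share of all tested rows with an unadjusted p under 0.05 was not counted, so those 2 genes have no background here. The 4 serpin genes tested had log2 fold changes above 0 (median 0.62), as had 6174 of the 12337 tested rows. SERPINA12, removed by the filter on low counts and named after its values were seen, had 15 and 7 counts in PLC-NC, but 1 and 0 in PLC-shUSP22. SERPINA6, corticosteroid-binding globulin, had 261 and 246 CPM in PLC-NC and 363 and 327 CPM in PLC-shUSP22 (log2 fold change 0.45 ± 0.16, unadjusted p = 0.0140 and adjusted p = 0.0664 in edgeR's test). Without knockdown replicate 2 it passed (adjusted p = 0.0313, in a range of 0.00674 to 0.296 over 11 alternatives). SERPINA5, the protein C inhibitor, had 81.8 and 97.7 CPM in PLC-NC and 110 and 124 CPM in PLC-shUSP22 (adjusted p = 0.159).

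LCN2, ORM1 and ORM2 are lipocalins, and 8 of 15 other listed members of that fold were tested. Of these 2 rose, 0 fell (1 at an unadjusted p under 0.05 with edgeR's test and 0 with DESeq2) and 6 did not pass. After adjustment that is 25% higher and 0% lower, where all tested rows gave 8.49% and 10.2%. The list median was -0.14 (log2 fold change). C8G, the lipocalin subunit of complement C8, rose from 199 and 202 CPM to 303 and 390 CPM (log2 fold change 0.79 ± 0.17, adjusted p = 0.00620). LCN15 rose from 8.40 and 5.81 CPM to 13.5 and 16.25 CPM (log2 fold change 1.07 ± 0.30, adjusted p = 0.0251). Its call was lost without control replicate 2 (0.150) and without knockdown replicate 2 (0.0694), in a range of 0.00145 to 0.150 over 11 alternatives.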
